A study of Rattus norvegicus with 6 samples.

Results

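Cells make cholesterol from acetyl-CoA through the mevalonate pathway, squalene and a series of sterols, and they take it up from lipoproteins through cell surface receptors. When sterol in the endoplasmic reticulum is scarce, the escort protein Scap carries SREBP-2 to the Golgi, where it is cut by proteases and released to switch on the genes of both routes. When sterol is plentiful, INSIG proteins hold the Scap complex back. In a disc, cells of the cartilage-like centre live far from blood vessels, and the blood-borne lipoproteins that feed other tissues reach them by diffusion.

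The 8 genes described here were the rows of a table of 30562 rat genes whose names are Hmgcs1, Sqle, Idi1, Fdft1, Srebf2, Insig1, Lss and Dhcr7, chosen as genes controlled by SREBP-2. Of them, 6 encode enzymes of cholesterol synthesis and 2, Srebf2 and Insig1, belong to its control. None of the 8 is itself a receptor or carrier of cholesterol uptake, so the uptake genes given further on come from a separate list.

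Bulk RNA was sequenced from tail discs of 12-week-old male Sprague-Dawley rats after needle puncture of the disc, in 3 libraries labelled Control and 3 labelled AF-PTK@LEV@SPP1. The agent is a vesicle made by fusing liposomes with bacterial outer membrane vesicles. It bears an annulus-binding peptide on a linker that reactive oxygen species cleave, and it carries an siRNA against Spp1. The liposomes were made of a saturated phospholipid, cholesterol and a PEGylated phospholipid, so the injected material itself contained cholesterol. It was injected into the disc in 10 µL with 1 mg/kg of siRNA, beginning 24 h after surgery. The study's results give PBS to the sequenced controls and 8 weeks of treatment. The sample labels differ, naming untreated controls, a treatment of 14 days and sorted macrophages of mice. All groups are wild type by label.

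The counts were those of rat genes, and cartilage matrix led over macrophage transcripts. All 8 markers of chondrocytes and disc matrix were tested, and together they held 21159, 31667 and 31537 normalized CPM (counts relative to the scaled total of each library) in Control replicates 1, 2 and 3 and 40769, 28830 and 45866 in AF-PTK@LEV@SPP1 replicates 1, 2 and 3, most of it Col2a1. The 8 macrophage markers held 954, 604 and 603 normalized CPM in Control and 352, 566 and 436 in AF-PTK@LEV@SPP1, and Marco had no count in any library. Spp1, the target of the siRNA, stood at 8122, 4411 and 4417 normalized CPM in Control and 8054, 6903 and 8461 under the AF-PTK@LEV@SPP1 label. The label of treatment thus did not go with less Spp1, and every direction given here is relative to the labels. The study's materials describe an siRNA against mouse Spp1, and its match to the rat gene was not tested here.

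The libraries held 15560728 to 17942989 counts, and 3 counts, the smallest level taken as measured, corresponded to 0.154 to 0.193 normalized CPM, a limit that covers counting error only. Control replicates 2 and 3 were nearly the same library. Over the 14393 genes that had 20 or more counts in both libraries together, their counts varied 1.33 times as much as sampling noise, against 51.3 to 107 times in the 5 other pairs within a group. They were counted as 1 sample, which leaves n = 2 distinct Control samples and n = 3 AF-PTK@LEV@SPP1 samples for each mean ± SD. The fits behind each fold change, SE, interval and adjusted p took all 6 libraries as separate samples, the pair included, unless the pair is said to be summed or a library left out. With the 5 distinct samples an exact permutation test, two-sided, can give no p below 0.1. That the libraries of a group came from separate rats is stated in the study's methods and not in the labels, and p-values measure only the spread between these libraries, which may be technical in part.

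The question was whether cholesterol synthesis differed between discs of the 2 groups. The filter for low counts kept all 8 genes, and none of the 8 passed edgeR's quasi-likelihood test at a Benjamini-Hochberg adjusted p under 0.05, where 18.1% of the 15042 tested genes did (8.20% higher and 9.93% lower in AF-PTK@LEV@SPP1). DESeq2 and limma-voom also called 0 of the 8, and 1, Idi1, had an unadjusted edgeR p under 0.05, beside 5503 of all 15042 tested genes. The median log2 fold change of AF-PTK@LEV@SPP1 over Control was -0.17 over the 8 genes and 0.05 over all tested genes. Of the 8 fitted changes 6 were negative and 2 positive, or 7 and 1 with RLE scaling. In 1 of the 8, again Idi1, the libraries of the groups did not overlap, where 42.3% of all tested genes showed no overlap.

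Hmgcs1 makes HMG-CoA, an early intermediate of the pathway. It lies on chromosome 2 from 51649497 to 51667100 (ENSRNOG00000016552) in the authors' annotation, for which the labels name only a mouse build. Its levels were 107, 86.7 and 87.0 normalized CPM in Control replicates 1, 2 and 3 and 110, 85.5 and 77.4 in AF-PTK@LEV@SPP1. Replicate 1 of each group was its highest library, and the range of the AF-PTK@LEV@SPP1 libraries enclosed all Control libraries. The means were 97.1 ± 14.6 (SD, n = 2) and 91.1 ± 17.2 (SD, n = 3), with a log2 fold change of -0.04 (SE 0.16, 95% interval -0.44 to 0.36, edgeR adjusted p = 0.879).

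Idi1 interconverts the activated isoprene units from which longer chains are built (ENSRNOG00000016690, chromosome 17 from 61629594 to 61637357). It stood at 44.3, 25.7 and 26.1 normalized CPM in Control and 23.7, 15.9 and 20.6 in AF-PTK@LEV@SPP1. Every AF-PTK@LEV@SPP1 library lay below every Control library, but the near-identical Control pair was only just above the highest of them, and Control replicate 1 stood apart. The log2 fold change was -0.67 (SE 0.26, 95% interval -1.31 to -0.04), with an edgeR adjusted p of 0.120 (without Control replicate 1, -0.37 and 0.186), and the means were 35.1 ± 13.0 (SD, n = 2) and 20.1 ± 3.91 (SD, n = 3). The exact permutation p was 0.1, the smallest these samples allow. Wdr37 overlaps the 5′ end of Idi1 on the opposite strand, and since the use of strand in counting is not stated, reads in the overlap could have gone to either gene. The levels of Wdr37 were 18.9, 20.5 and 19.3 normalized CPM in Control and 18.2, 21.6 and 21.3 in AF-PTK@LEV@SPP1. The part of overlap reads in either gene was not tested. The 5 Idi2-like genes in the table had at most 9 counts in any library.

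Squalene synthesis commits the pathway to sterols, and Fdft1, squalene synthase, catalyses that step (ENSRNOG00000021314, chromosome 15 from 37412146 to 37440287). Its levels were 39.2, 35.0 and 36.9 normalized CPM in Control and 43.7, 36.0 and 32.6 in AF-PTK@LEV@SPP1. The AF-PTK@LEV@SPP1 libraries spanned a range that enclosed all Control libraries. The log2 fold change was 0.02 (SE 0.13, 95% interval -0.29 to 0.32, edgeR adjusted p = 0.943), and its sign turned to -0.0038 with edgeR's RLE scaling.

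Sqle, squalene epoxidase, is a rate-limiting oxygen-dependent step (ENSRNOG00000009550, chromosome 7 from 90868011 to 90883618). It had 40.4, 37.6 and 36.1 normalized CPM in Control and 38.2, 26.8 and 26.0 in AF-PTK@LEV@SPP1. Replicate 1 of the latter group lay among the Control libraries, and replicates 2 and 3 lay below them. The means were 38.6 ± 2.46 (SD, n = 2) and 30.4 ± 6.83 (SD, n = 3), with a log2 fold change of -0.33 (SE 0.16, 95% interval -0.72 to 0.07, edgeR adjusted p = 0.204).

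Lss, lanosterol synthase, closes the sterol rings (ENSRNOG00000054549, chromosome 20 from 12092774 to 12118762). Its levels were 31.5, 58.5 and 55.0 normalized CPM in Control and 43.1, 42.5 and 33.6 in AF-PTK@LEV@SPP1. Control replicate 1 was the lowest of the 6 libraries while the near-identical Control pair was the highest, so the Control samples bracketed all AF-PTK@LEV@SPP1 libraries. The log2 fold change was -0.28 (SE 0.25, 95% interval -0.88 to 0.31, edgeR adjusted p = 0.442). Without Control replicate 1 it was -0.52 with an edgeR adjusted p of 0.0441, a fit in which the near-identical pair is the whole Control group. That fit called 3745 of all 15422 tested genes.

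Dhcr7 catalyses the last step of one branch, from 7-dehydrocholesterol, also the precursor of vitamin D, to cholesterol (ENSRNOG00000020776, chromosome 1 from 199015081 to 199031055). Control libraries held 10.4, 10.7 and 11.1 normalized CPM and AF-PTK@LEV@SPP1 libraries 22.5, 10.3 and 12.4. The high value was that of AF-PTK@LEV@SPP1 replicate 1, and the other two lay just below and just above the Control libraries. The log2 fold change was 0.49 (SE 0.30, 95% interval -0.23 to 1.21, edgeR adjusted p = 0.283), and without AF-PTK@LEV@SPP1 replicate 1 it was 0.043 (edgeR adjusted p = 0.845).

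Srebf2 encodes SREBP-2 and is itself among the genes SREBP-2 controls (ENSRNOG00000007400, chromosome 7 from 113663202 to 113720848). Its levels were 51.3, 56.1 and 57.3 normalized CPM in Control and 58.7, 48.0 and 51.5 in AF-PTK@LEV@SPP1. The groups overlapped, and Srebf2 was the steadiest of the 8 genes, its highest library being 1.22 times its lowest. The log2 fold change was -0.06 (SE 0.10, 95% interval -0.31 to 0.19, edgeR adjusted p = 0.711). The host transcript also contains Mir33, a microRNA gene that had no counts here.

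Insig1 encodes the sterol-sensing anchor of Scap and is among the genes SREBP-2 induces (ENSRNOG00000006859, chromosome 4 from 7315495 to 7323952). It had 152, 138 and 137 normalized CPM in Control and 148, 75.8 and 52.9 in AF-PTK@LEV@SPP1. Replicate 1 of the latter group was level with Control while replicates 2 and 3 were far below it, which made Insig1 the most variable of the 8, with a highest library 2.87 times its lowest. The means were 145 ± 10.2 (SD, n = 2) and 92.3 ± 49.8 (SD, n = 3), and the log2 fold change was -0.62 (SE 0.36, 95% interval -1.50 to 0.26, edgeR adjusted p = 0.262). An Insig1-like gene elsewhere in the table had at most 1 count.

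**Figure D1:**
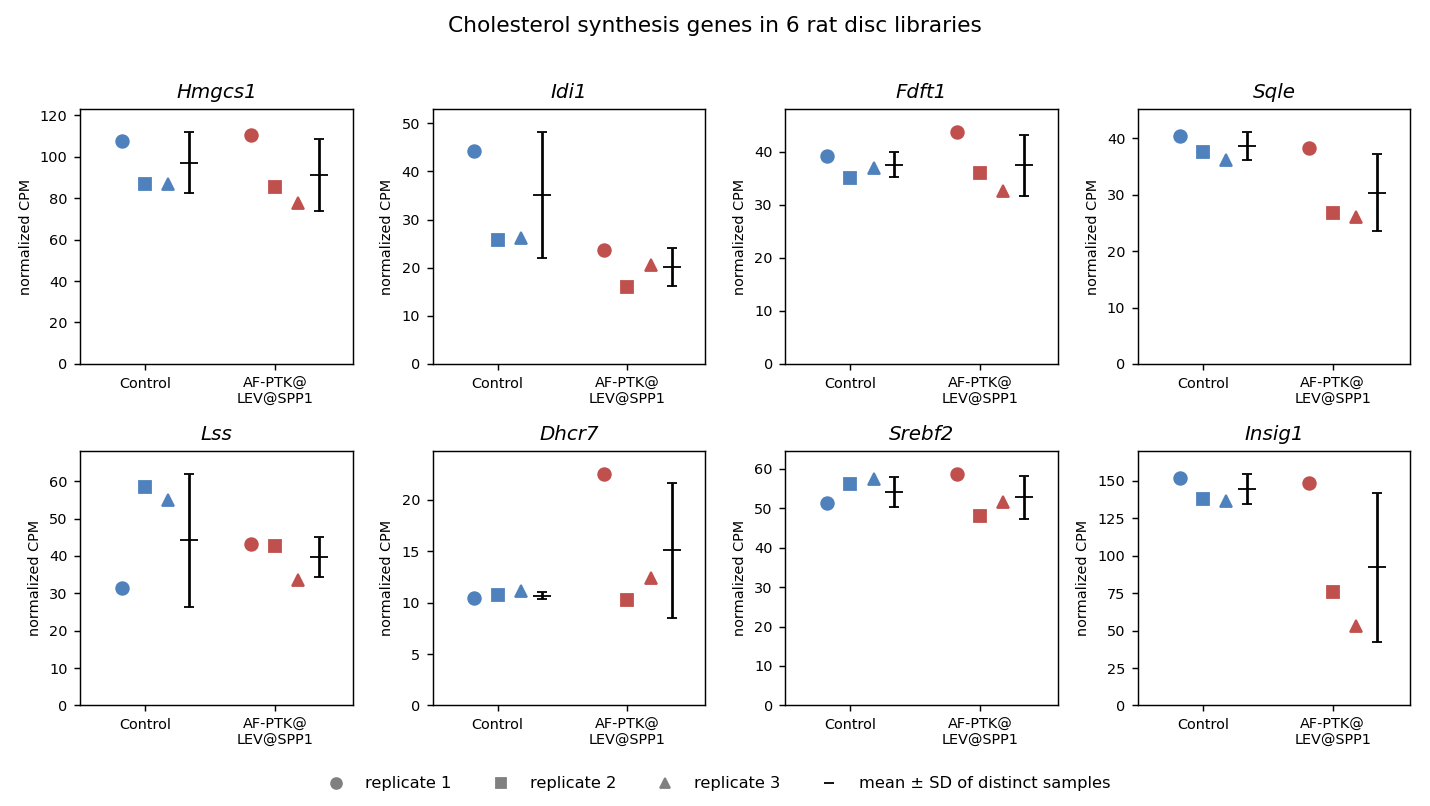
Normalized CPM of the 8 genes in each library, with groups on the x axis, symbols for replicates and bars for the mean ± SD of distinct samples (Control replicates 2 and 3 as 1 sample). For Insig1, AF-PTK@LEV@SPP1 replicate 1 sits at 148 beside the Control libraries, and replicates 2 and 3 sit at 75.8 and 52.9.

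In 8 of 8 genes AF-PTK@LEV@SPP1 replicate 1 was above replicates 2 and 3 of its group, narrowly for Lss, where 37.4% of all tested genes had this order, a pattern noticed after the values were seen. Without this library edgeR called 2 of the 8 genes, against 17.4% of the 15460 genes then tested. Insig1 then had a log2 fold change of -1.18 (95% interval -1.62 to -0.73, edgeR adjusted p = 0.0184, against 0.0184 to 0.476 over all alternatives). Sqle had -0.56 (95% interval -0.80 to -0.32, edgeR adjusted p = 0.0226, against 0.0226 to 0.432). With the near-identical Control pair summed as well, Insig1 had -1.21 (edgeR adjusted p = 0.0803) and Sqle -0.59 (edgeR adjusted p = 0.0913), and edgeR called 0 of the 8 and 113 of all 15363 genes then tested.

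The same libraries also differed in cell markers. All 7 tested neutrophil markers were lowest in AF-PTK@LEV@SPP1 replicate 1 within its group, the list holding 281, 2820 and 3899 normalized CPM in replicates 1, 2 and 3 against 1104, 172 and 163 in Control, with S100a9 the most counted gene and Ltf at or under 3 counts. The 8 erythroid markers, led by Hbb, summed to 309, 3153 and 1889 normalized CPM in AF-PTK@LEV@SPP1 and 347, 357 and 391 in Control, all 8 lowest in replicate 1. The 7 skeletal muscle markers, led by Acta1, summed to 987, 10262 and 2649 in AF-PTK@LEV@SPP1 and 1106, 1403 and 1422 in Control. Proliferation markers, led by Mki67, likewise summed to 127, 680 and 460 normalized CPM in AF-PTK@LEV@SPP1 and 273, 176 and 169 in Control.

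Myelinating cells are heavy makers of cholesterol, and 5 of 6 tested markers of these cells were lowest in replicate 1 of the AF-PTK@LEV@SPP1 group. The 8 markers of Schwann cells and myelin, led by Pmp22, summed to 378, 1012 and 1529 normalized CPM in AF-PTK@LEV@SPP1 and 216, 289 and 284 in Control. Of the 6 tested, edgeR called 3 higher, beside 8.20% of all tested genes, and 0 with the Control pair summed. DESeq2 called 6. Within the AF-PTK@LEV@SPP1 group all 5 tested nucleus pulposus and notochord markers were highest in replicate 1, as the 8 genes were. Between the groups all 5 markers had positive log2 fold changes (median 2.56), while 6 of the 8 genes had negative ones. Of these 5 markers edgeR called 2 higher, beside 8.20% of all tested genes, and limma-voom called 3. With the Control pair summed edgeR called 0, beside 3.70% of all genes called in either direction. With a replicate block edgeR called 4, in a fit that called 741 of all 15042 tested genes. That list, led by Car3, summed to 7146, 3970 and 3494 normalized CPM in AF-PTK@LEV@SPP1 and 1679, 533 and 524 in Control, with Noto at 0 in every library. Shh of the same list, too low to be tested, had 1, 16 and 31 counts in AF-PTK@LEV@SPP1 replicates 1, 2 and 3 and 0, 2 and 2 in Control. The part of these cells in the levels of the 8 genes was not tested, and fewer cells of a type and less RNA per cell cannot be told apart in bulk tissue.

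Of 5 other mevalonate enzymes 1 was called, lower, and of 8 other enzymes between squalene and cholesterol 1 was called, lower, beside the 18.1% of all tested genes. Fdps, which joins isoprene units and had the most counts of the mevalonate list, held 69.4, 69.0 and 68.6 normalized CPM in Control and 77.6, 54.0 and 56.6 in AF-PTK@LEV@SPP1, with replicate 1 highest as for Insig1 (log2 fold change -0.14, SE 0.15, edgeR adjusted p = 0.532). Acat2, the thiolase that opens the pathway, fell from 19.9, 17.2 and 19.1 to 14.4, 12.7 and 12.9 normalized CPM (log2 fold change -0.49, SE 0.11, edgeR adjusted p = 0.0315, or 0.0977 with the Control pair summed).

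Cyp51, the lanosterol demethylase that acts directly after Lss, was the called enzyme of the later steps. It stood at 73.0, 74.0 and 73.0 normalized CPM in Control and 53.5, 45.3 and 39.8 in AF-PTK@LEV@SPP1, with no overlap (log2 fold change -0.67, SE 0.12, edgeR adjusted p = 0.0172, or 0.0772 with the Control pair summed). Lbr, a sterol reductase and nuclear envelope protein, had the most counts of this list and was lowest in replicate 1 of the AF-PTK@LEV@SPP1 group, the library in which each of the 8 genes was highest of that group. It had 43.4, 153 and 127 normalized CPM in AF-PTK@LEV@SPP1 and 68.7, 37.6 and 38.2 in Control (log2 fold change 1.16, SE 0.49, edgeR adjusted p = 0.143).

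Among 4 tested genes of SREBP control other than Srebf2 and Insig1, 1 was called higher and 1 lower, beside the 18.1% of all tested genes called. Srebf1, the sister gene of Srebf2 that favours fatty acid synthesis, had 26.5, 23.996 and 23.3 normalized CPM in Control and 44.6, 37.6 and 35.7 in AF-PTK@LEV@SPP1. Its groups were clearly apart (log2 fold change 0.67, SE 0.11, edgeR adjusted p = 0.0147, or 0.0779 with the Control pair summed), while those of Srebf2 overlapped; the difference between the 2 genes was not tested. Srebf1 overlaps Rai1 on the opposite strand, and Rai1 had 23.99, 23.6 and 26.7 normalized CPM in Control and 33.6, 25.2 and 29.3 in AF-PTK@LEV@SPP1. Scap, the escort of both SREBPs, went from 40.7, 49.2 and 45.7 to 34.3, 36.7 and 33.4 normalized CPM, with no overlap (log2 fold change -0.38, SE 0.10, edgeR adjusted p = 0.0467, or 0.154 with the Control pair summed). Mbtps1, the protease that makes the earlier of the cuts and the gene with the most counts in this list, had a log2 fold change of 0.12 (SE 0.12, edgeR adjusted p = 0.513).

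**Figure D2:**
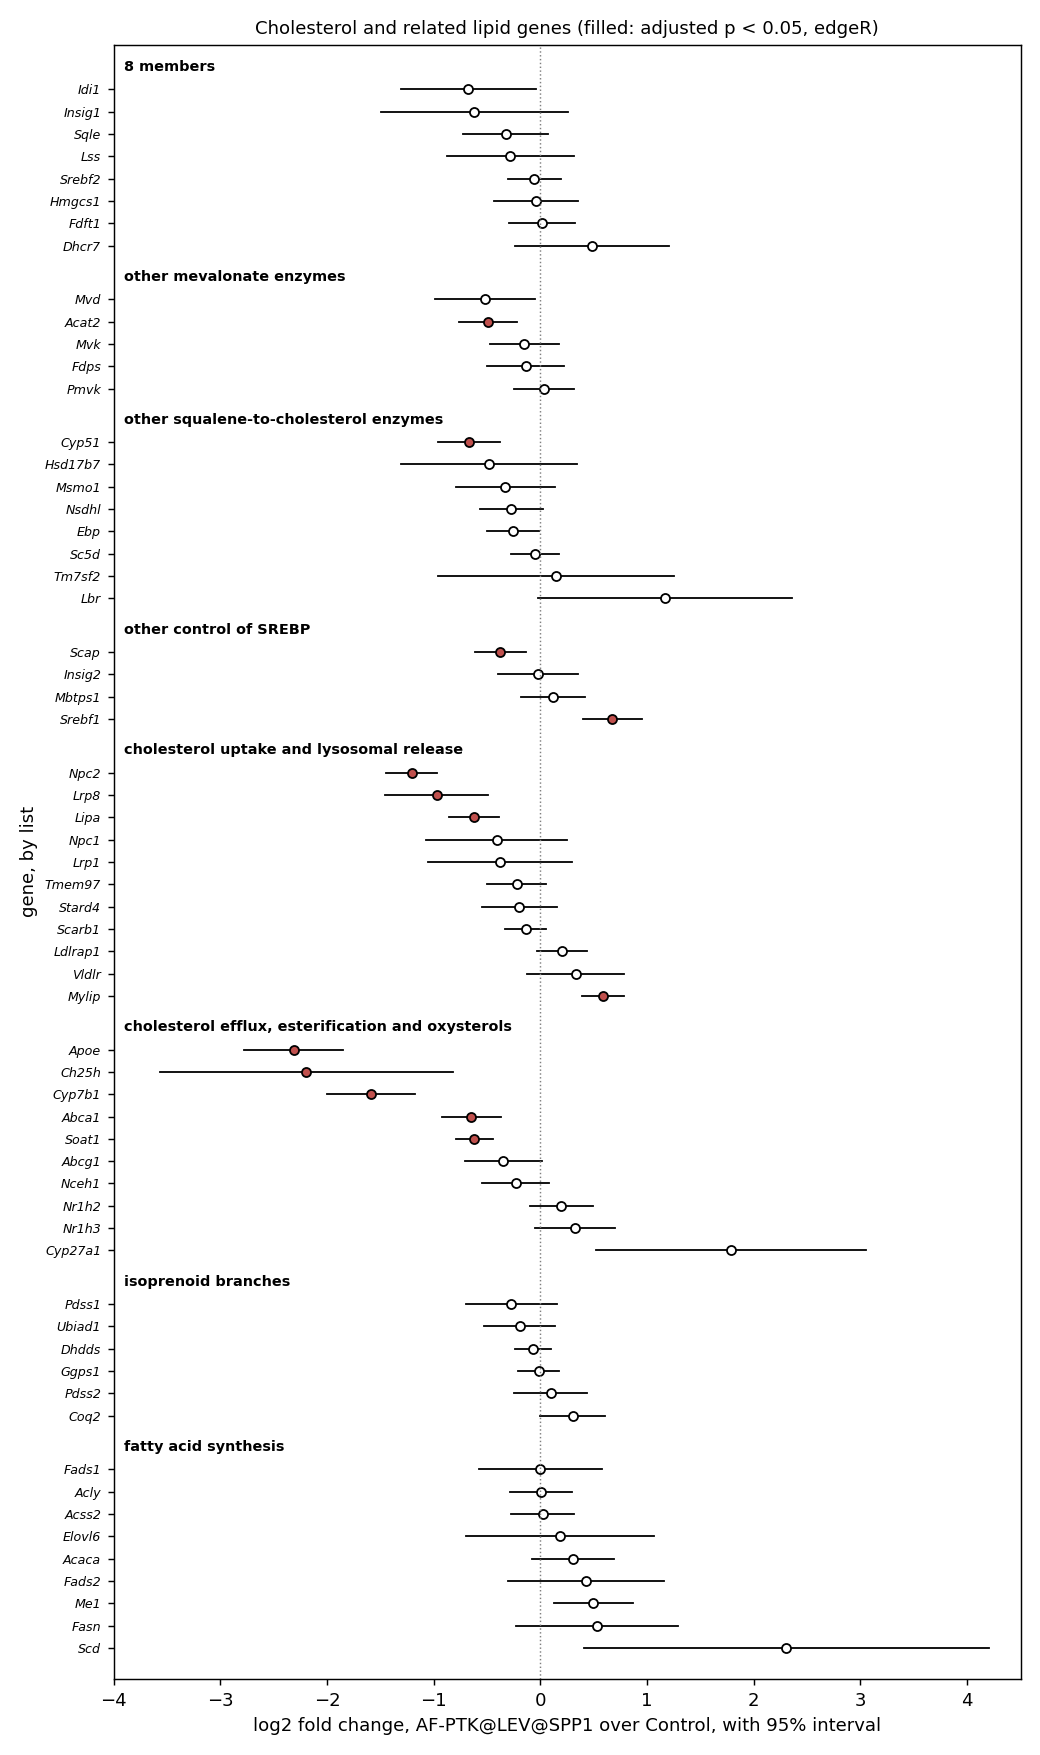
Log2 fold change of AF-PTK@LEV@SPP1 over Control (x axis) with its 95% interval for 61 tested genes, one row each, grouped by list, with filled points at edgeR adjusted p under 0.05. None of the 8 genes at the top is filled, and the 13 filled points below them include 11 to the left of 0.

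Genes of cholesterol uptake differed in direction. Mylip, the ubiquitin ligase that marks lipoprotein receptors for degradation, rose from 64.0, 62.8 and 56.8 to 94.5, 91.2 and 89.7 normalized CPM (log2 fold change 0.58, SE 0.08, edgeR adjusted p = 0.00866, or 0.0522 with the Control pair summed). Lrp8 was lower, at 3.29, 3.62 and 3.59 normalized CPM against 5.70, 8.36 and 6.59 in Control (log2 fold change -0.97, SE 0.20, edgeR adjusted p = 0.0243, or 0.0878 with the Control pair summed). Lrp1, the receptor with the most counts here, had a log2 fold change of -0.38 (SE 0.28, edgeR adjusted p = 0.366).

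Cholesterol taken up in lipoproteins is freed in lysosomes, and of the genes of that step Npc2 and Lipa were called, both lower, while Npc1 was not (log2 fold change -0.41, edgeR adjusted p = 0.320). Npc2, which binds the freed cholesterol, had 262, 288 and 301 normalized CPM in Control and 116, 126 and 126 in AF-PTK@LEV@SPP1. The groups were widely apart and each was tight (means 278 ± 22.7, SD, n = 2, and 123 ± 5.91, SD, n = 3), with a log2 fold change of -1.21 (SE 0.10, 95% interval -1.44 to -0.97, edgeR adjusted p = 0.00240). Lipa, the acid lipase that cleaves cholesteryl esters, fell from 76.3, 73.8 and 72.9 to 45.5, 45.4 and 54.1 normalized CPM (log2 fold change -0.62, SE 0.10, edgeR adjusted p = 0.0115, or 0.0587 with the Control pair summed). In all, 4 of the 11 tested genes of uptake and lysosomal release were called, 1 higher and 3 lower, beside 18.1% of all tested genes. With the Control pair summed 1 of the 11, Npc2, was called, beside 3.70%.

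Of 10 tested genes of cholesterol efflux, esterification and oxysterols 5 were called, all lower, where 18.1% of all tested genes were called. Apoe, the apolipoprotein that accepts exported cholesterol, had 2004, 1664 and 1698 normalized CPM in Control and 424, 366 and 288 in AF-PTK@LEV@SPP1. This was a fitted level 4.98 times higher in Control (log2 fold change -2.32, SE 0.19, 95% interval -2.78 to -1.85, edgeR adjusted p = 0.00243). Soat1, which esterifies cholesterol for storage, had 97.8, 94.8 and 99.8 normalized CPM in Control and 61.6, 65.8 and 63.0 in AF-PTK@LEV@SPP1 (log2 fold change -0.62, SE 0.07, edgeR adjusted p = 0.00585). Abca1, the pump that loads cholesterol onto apolipoproteins, went from 82.4, 76.8 and 77.1 to 56.2, 51.3 and 43.3 normalized CPM (log2 fold change -0.65, SE 0.11, edgeR adjusted p = 0.0161, or 0.0699 with the Control pair summed).

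Of the enzymes that make or modify oxysterols, sterols that hold SREBP processing in check, Cyp7b1 and Ch25h were called, both lower. Cyp7b1, an oxysterol hydroxylase, had 17.3, 15.4 and 15.3 normalized CPM in Control and 5.53, 6.15 and 4.27 in AF-PTK@LEV@SPP1 (log2 fold change -1.59, SE 0.17, edgeR adjusted p = 0.00453). Ch25h, which makes 25-hydroxycholesterol, was low everywhere, at 7.24, 2.77 and 1.83 against 0.764, 0.784 and 1.03 normalized CPM (log2 fold change -2.20, SE 0.57, edgeR adjusted p = 0.0450, or 0.0778 with the Control pair summed). Without Control replicate 1, its highest library, the log2 fold change of Ch25h was -1.42 (edgeR adjusted p = 0.0353), a fit whose Control group is the near-identical pair alone. With any other library left out Ch25h was not called (edgeR adjusted p 0.0578 to 0.116), nor was it by limma-voom (adjusted p = 0.0949). Cyp27a1 stood at 13.8, 3.67 and 4.64 normalized CPM in Control and 33.1, 20.9 and 22.9 in AF-PTK@LEV@SPP1 without passing the edgeR test (log2 fold change 1.79, SE 0.52, edgeR adjusted p = 0.0617). It was called by DESeq2 and limma-voom, and by edgeR without Control replicate 1 (log2 fold change 2.62, edgeR adjusted p = 0.00458), but not with the Control pair summed (log2 fold change 1.52, edgeR adjusted p = 0.172) or without AF-PTK@LEV@SPP1 replicate 1 (log2 fold change 1.52, edgeR adjusted p = 0.118).

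Many of these transport and storage genes are abundant in macrophages, whose markers were called lower for 2 of 7 tested, Cd68 and Mrc1 (1 with the Control pair summed), beside 9.93% of all tested genes called lower, with Mrc1 at 215, 180 and 179 normalized CPM in Control and 87.7, 123 and 96.0 in AF-PTK@LEV@SPP1. Cd163 of the same list went the other way without being called (54.0, 29.5 and 29.0 normalized CPM in Control and 47.2, 143 and 88.3 in AF-PTK@LEV@SPP1, edgeR adjusted p = 0.0892). Of 8 osteoclast markers 6 were called lower, beside the same 9.93%. With the Control pair summed 5 were, in a fit that called 400 of all 15537 tested genes lower. The list, led by Ctsk, summed to 6520, 4239 and 4258 normalized CPM in Control and 1123, 1104 and 773 in AF-PTK@LEV@SPP1. The part of these cells in the lower Npc2, Lipa, Apoe, Soat1 and Abca1 was not tested.

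Together 13 of 53 tested genes outside the 8 were called, 2 higher and 11 lower, beside the 18.1% of all tested genes. With the near-identical Control pair summed, 3.70% of 15537 tested genes were called and 4 of these genes, Npc2, Apoe, Soat1 and Cyp7b1, remained. The same 4 were left without Control replicate 2 or without Control replicate 3. Without AF-PTK@LEV@SPP1 replicate 2 or replicate 3 the count was 9, and without Control replicate 1 or AF-PTK@LEV@SPP1 replicate 1 it was 14. Over 16 alternatives Npc2, Apoe and Cyp7b1 passed the threshold in 15 and Soat1 in 14, while the other 9 genes passed in 6 to 12. Without AF-PTK@LEV@SPP1 replicate 1 the newly called genes were Fdps and Msmo1, lower, and Lbr, higher. Without Control replicate 1 they were Cyp27a1 and Scd, both higher, and without AF-PTK@LEV@SPP1 replicate 2 Me1.

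Side routes of the pathway were tested as well. None of 6 genes of the isoprenoid branches was called by edgeR, DESeq2 or limma-voom, and 1 had an unadjusted edgeR p under 0.05. Dhdds, which builds dolichol chains and had the most counts of that list, stood at 33.4, 34.0 and 33.4 normalized CPM in Control and 31.8, 31.6 and 32.5 in AF-PTK@LEV@SPP1 (log2 fold change -0.07, SE 0.07, edgeR adjusted p = 0.493). None of 9 genes of fatty acid synthesis was called by any of the 3 tools, and 2 had an unadjusted edgeR p under 0.05. Beside both lists, edgeR called 18.1% of all tested genes, and 5503 of the 15042 had an unadjusted edgeR p under 0.05. Scd, the desaturase with the most counts there, had 631, 128 and 131 normalized CPM in Control and 1106, 2461 and 829 in AF-PTK@LEV@SPP1, without overlap but with a wide spread in both groups (log2 fold change 2.31, SE 0.78, edgeR adjusted p = 0.0878). Without Control replicate 1 edgeR called Scd (log2 fold change 3.50, edgeR adjusted p = 0.0129), a fit whose Control group is the near-identical pair alone, and with that pair summed it did not (log2 fold change 1.94, edgeR adjusted p = 0.226). Of 8 adipocyte markers 2 were called, higher, beside 18.1% of all tested genes called, and Fabp4, the most counted, was not. DESeq2 called 6, limma-voom called 3, and edgeR with the Control pair summed called 0. The list summed to 527, 96.0 and 101 normalized CPM in Control and 1133, 1851 and 846 in AF-PTK@LEV@SPP1, and their part in the level of Scd was not tested.

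**Figure D3:**
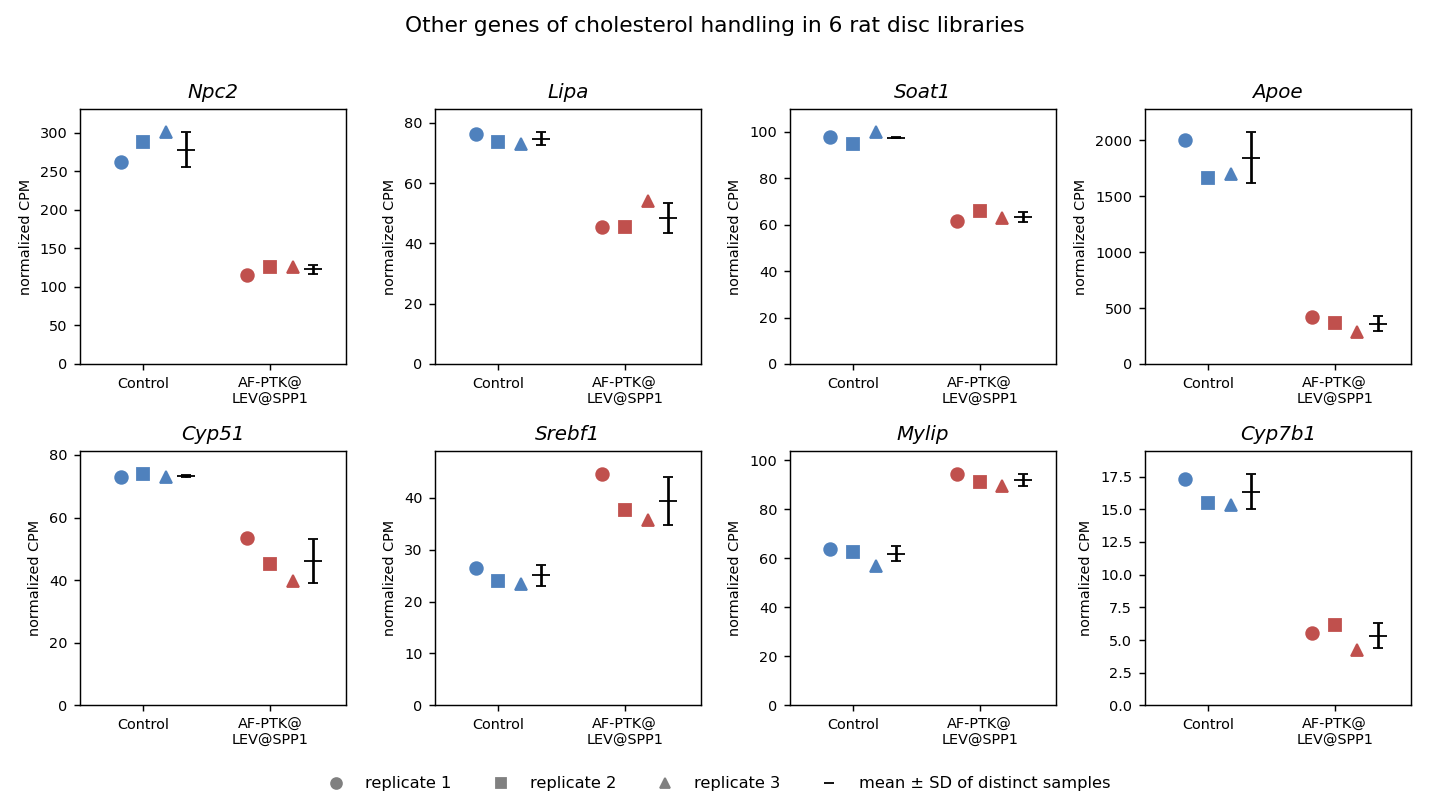
Normalized CPM of 8 other genes of cholesterol handling in each library, with groups on the x axis, symbols for replicates and bars for the mean ± SD of distinct samples. Npc2 is at 262 to 301 in Control and 116 to 126 in AF-PTK@LEV@SPP1, while Mylip is higher in all 3 AF-PTK@LEV@SPP1 libraries, at 89.7 to 94.5.

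The 8 genes lay at unequal distances from their mean profile. Distance to their mean profile, the root mean square difference of centred log2 CPM over the 5 distinct samples, was smallest for Sqle at 0.08 and largest for Insig1 at 0.40, with Idi1 at 0.38 and Dhcr7 at 0.37. Among 10187 other genes whose mean log2 CPM was 3 or more, the 5 nearest to that profile were Dock5 (0.05), Plxnb2 (0.06), Dennd2a (0.06), Polr3d (0.07) and Nsun6 (0.07). Dock5 had 53.4, 54.4 and 53.9 normalized CPM in Control and 54.6, 40.9 and 38.4 in AF-PTK@LEV@SPP1. None of these 5 is a sterol gene by the table's descriptions.

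SREBP-2 acts together with NF-Y and Sp1, and promoter sequence was searched for short motifs. A single reference sequence stands for all libraries, so it cannot say why libraries differ. RefSeq promoter entries (build GRCr8) were matched for 6 of the 8 genes, Hmgcs1, Idi1, Srebf2, Insig1, Lss and Dhcr7, and the 250 bases before each gene's start were searched on both strands. The NF-Y box CCAAT was found in 5 of the 6 and in 34.0% of 33469 such windows. The Sp1 box GGGCGG was also found in 5 of the 6, against 30.5% of windows, with overlapping copies in Dhcr7. The E-box CACGTG was found in Insig1 alone of the 6, against 5.59% of windows.

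The sterol regulatory element written as TCACNCCAC was found in none of the 6 and in 0.974% of windows. Its first 8 letters, TCACNCCA, a shortening chosen after the sequences were seen, were found in Srebf2, from 156 to 149 bases before the start, and in 3.24% of windows. The NF-Y box of Srebf2 follows it at 129 to 125 bases before the start. No match says only that these letters are not in the window.

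The windows of 4 genes follow, for the steadiest gene, the most variable, the gene whose groups did not overlap and the enzyme at the head of the list, each written 5′ to 3′ on the gene's strand, with capitals for any of the motifs on either strand. The Srebf2 window is chr7:115543057-115543306, plus strand, of GRCr8. The Insig1 window is chr4:8057770-8058019, minus strand. The Idi1 window is chr17:66547525-66547774, minus strand. The Hmgcs1 window is chr2:53382054-53382303, plus strand.
Srebf2: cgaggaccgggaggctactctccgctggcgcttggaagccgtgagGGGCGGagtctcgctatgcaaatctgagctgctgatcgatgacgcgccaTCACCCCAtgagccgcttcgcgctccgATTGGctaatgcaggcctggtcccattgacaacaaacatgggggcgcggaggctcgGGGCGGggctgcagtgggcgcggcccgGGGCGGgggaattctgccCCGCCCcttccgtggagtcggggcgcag
Insig1: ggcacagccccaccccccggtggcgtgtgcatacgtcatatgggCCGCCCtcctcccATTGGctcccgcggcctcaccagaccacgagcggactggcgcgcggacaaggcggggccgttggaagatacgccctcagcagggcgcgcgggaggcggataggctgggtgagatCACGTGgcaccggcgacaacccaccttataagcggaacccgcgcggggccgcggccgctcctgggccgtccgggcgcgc
Idi1: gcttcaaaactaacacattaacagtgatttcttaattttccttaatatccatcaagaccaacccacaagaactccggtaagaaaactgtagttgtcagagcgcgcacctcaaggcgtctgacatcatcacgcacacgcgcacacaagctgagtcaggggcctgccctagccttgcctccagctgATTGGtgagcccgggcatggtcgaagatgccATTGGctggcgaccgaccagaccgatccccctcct
Hmgcs1: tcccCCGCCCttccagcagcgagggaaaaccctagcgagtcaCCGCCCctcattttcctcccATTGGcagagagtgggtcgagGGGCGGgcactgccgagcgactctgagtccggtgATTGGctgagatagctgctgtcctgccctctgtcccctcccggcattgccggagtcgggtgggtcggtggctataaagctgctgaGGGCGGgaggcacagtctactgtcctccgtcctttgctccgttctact

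Insig1 carries 1 NF-Y box, 1 Sp1 box and the E-box in this window, Idi1 carries 2 NF-Y boxes and no Sp1 box, and Hmgcs1 carries 2 NF-Y boxes and 4 Sp1 boxes. Srebf2 carries 1 NF-Y box and 4 Sp1 boxes.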

How the data were processed

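The authors deposited whole-number counts of reads per rat gene in 6 libraries, without normalization. The submitters' processing notes name FastQC, Trimmomatic, HISAT2, featureCounts, DESeq2 and mm10, a mouse build, although the genes are those of rat, so the build of the printed gene coordinates is not given in the sources used here. How counting treated strand and reads shared by genes is not stated either.

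Counts were fitted in R 4.3.3 with edgeR 4.0.16 (TMM scaling, filterByExpr with a minimum count of 10, quasi-likelihood test, Benjamini-Hochberg adjustment over all tested genes). The common biological coefficient of variation was 0.269. A prior count of 2 entered log2 CPM. The fits were tested on simulated data whose libraries were drawn independently, so that test does not cover the near-identical Control pair. Alternatives were DESeq2 1.42.0, limma-voom (limma 3.58.1), other scalings, filters and thresholds, a robust fit, a replicate block, the Control pair summed and each library left out. The 8 genes and the lists of other genes and cell markers were chosen with earlier results of these data known. Named genes are the 8, the called genes and the most counted gene of each list, the 5 nearest profiles, the most abundant gene of each marker list and its markers at or near 0, Spp1 as the target of the siRNA, genes that overlap or resemble one of these (Wdr37, Rai1, Mir33 and the Insig1-like and Idi2-like genes), and Cyp27a1, Msmo1, Npc1, Me1, Shh and Cd163, which were added after their values were seen. Some genes of the pathway are not reported here. Listed markers that matched no name in the table were not used here.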

Additional observations from a re-analysis of the deposited data

How the results depend on the processing

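For the 8 genes, 114 of 128 single-gene values over 16 alternatives kept their sign and their side of the threshold, and the median log2 fold change stayed between -0.31 and -0.11. The number of the 8 called was 0 to 2 when each library was left out in turn. Lss was called without Control replicate 1, in a fit that called 3745 of all 15422 tested genes. Insig1 and Sqle were called without AF-PTK@LEV@SPP1 replicate 1, in a fit that called 17.4% of 15460. Every other alternative run called 0 of the 8. Fdft1 turned negative with DESeq2 (-0.013), RLE scaling (-0.0038), no filter (-0.029), the Control pair summed (-0.015), and that pair summed without AF-PTK@LEV@SPP1 replicate 1 (-0.17, a setting chosen after seeing the data). It was also negative without Control replicate 2 (-0.029) and without AF-PTK@LEV@SPP1 replicate 1 (-0.14). With each library left out, values ran from -0.14 to 0.11 for Fdft1, -0.24 to 0.065 for Hmgcs1, -0.17 to 0.0052 for Srebf2, -0.85 to -0.37 for Idi1, -0.56 to -0.23 for Sqle, -0.52 to -0.13 for Lss, 0.043 to 0.70 for Dhcr7 and -1.18 to -0.34 for Insig1. The sign changes lie within the intervals of the values, and their cause was not tested.

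Of all 15042 tested genes, 2727 were called. The count was 575 with the pair summed, 113 with the pair summed and AF-PTK@LEV@SPP1 replicate 1 left out (fits with fewer samples), 562 to 3745 with each library left out, 1328 with an absolute log2 fold change above 1 as well, and 4607 at an adjusted p under 0.1. Called genes of the other lists were 13, and 4, 0, 4 to 14, with the fold threshold 4 and, at an adjusted p under 0.1, 16 in those settings.

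The labels give both groups replicate numbers, but the study names no pairing, so the numbers were not taken as pairs. Deviations of same-numbered libraries had correlations across genes of -0.326, -0.282 and -0.0756, and those of other combinations ran from -0.276 to 0.32. With Control replicates 2 and 3 nearly the same library, these values cannot say whether the numbers are pairs. Fitted with a replicate block, 741 genes, 4 genes of the other lists (Apoe, Cyp7b1, Npc2 and Srebf1) and 0 of the 8 were called, with a median of -0.15 for the 8.

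The lowest count of the 8 genes in any library was 167. The exact permutation p of the 8 genes with all 6 libraries as separate samples ran from 0.1 to 0.9.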

Other observations

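Cell markers outside the lists already given also differed between the libraries. Of 8 T cell markers 4 were called lower in AF-PTK@LEV@SPP1, beside 9.93% of all tested genes. With the Control pair summed 2 were, in a fit that called 400 of all 15537 tested genes lower. Another 3 had positive fold changes without being called. The list summed to 28.0, 26.7 and 25.4 normalized CPM in Control and 11.9, 15.4 and 16.2 in AF-PTK@LEV@SPP1. Of 7 endothelial markers 4 were called lower, beside the same 9.93%, and 0 with the Control pair summed, with Pecam1 at 195, 276 and 267 normalized CPM in Control and 135, 148 and 163 in AF-PTK@LEV@SPP1. B cell markers summed to 82.7, 42.1 and 36.9 normalized CPM in Control and 63.3, 109 and 140 in AF-PTK@LEV@SPP1. Of these 8 edgeR called none, beside 18.1% of all tested genes, and 2 had an unadjusted edgeR p under 0.05, beside 5503 of all 15042. None of 8 osteoblast and osteocyte markers was called, and none had an unadjusted edgeR p under 0.05, beside those same shares. The osteoblast and osteocyte markers summed to 4699, 1840 and 1839 normalized CPM in Control and 2275, 3260 and 1893 in AF-PTK@LEV@SPP1.

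In AF-PTK@LEV@SPP1 replicate 1, the highest of its group for each of the 8 genes, 2 of the 5 other mevalonate enzymes and 4 of the 8 later enzymes were highest of the group too, beside 37.4% of all tested genes.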
